A study of Mus musculus with 7 samples.

Results

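Matrix metalloproteinases are zinc-dependent proteases that cleave proteins of the extracellular matrix and of the cell surface. Most are secreted or displayed as inactive proenzymes, are switched on by other proteases, and are held in check by tissue inhibitors of metalloproteinases. In the aorta they are known for the turnover of collagen and elastin in the vessel wall. The genes described here are *Mmp19* and 9 further members of the family (*Mmp2*, *Mmp3*, *Mmp8*, *Mmp9*, *Mmp12*, *Mmp13*, *Mmp14*, *Mmp17* and *Mmp23*). They were taken as the rows of the deposited count table whose Ensembl identifiers map to these symbols, which gave 10 of 47729 rows. The question was whether other matrix metalloproteinases differ where *Mmp19* is targeted.

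RNA of mouse aorta was sequenced from 4 libraries labelled wild type (WT) and 3 labelled *Mmp19* knockout (KO), described as *Mmp19*-/- in the design text. The sources used here do not give strain, age, treatment, the segment of aorta or the deleted exons. KO below always means a library that carries this label. The labels do not say whether libraries came from separate mice, so p-values measure only the spread between these 7 libraries.

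Total estimated counts lay between 68151472 and 76926790 per library, and 19188 genes were tested, all 10 described genes among them. The levels of cell type markers in the KO libraries differed from WT and between the KO libraries. CPM are counts scaled to a library size of 1000000 with edgeR's TMM factors. Summed CPM of 10 smooth muscle markers were 19401 to 21582 in WT. They were 4286, 15011 and 8026 in KO replicates 1, 2 and 3. Summed CPM of 14 macrophage markers were 426 to 685 in WT and 4399, 844 and 1428 in KO replicates 1 to 3. KO replicate 1 stood farthest from WT in both lists, and no marker of either list was at 0 in all libraries. In bulk tissue, fewer cells of a type and less RNA per cell cannot be told apart. The part of these marker levels in the results below was not tested. For the 10 genes, the value without KO replicate 1 is given where leaving it out changed a call or moved the fold by more than 1.5 times.

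Of the 10 genes, 7 had a positive log2 fold change (KO minus WT) and 3 a negative one. The quasi-likelihood test of edgeR, with p-values adjusted over all genes, called 0 of the 10 at 0.05 (0.0156% of all tested genes were called). At an unadjusted p under 0.05, 7 genes were higher (9.92% of all genes) and 2 were lower (7.27%). DESeq2 gave an adjusted p for 9 of the 10 and called 4 of them higher, *Mmp3*, *Mmp12*, *Mmp13* and *Mmp14* (6.15% of all genes with an adjusted p). It called 1 lower, *Mmp17* (3.53%). All KO libraries exceeded all WT libraries for 4 genes (8.17% of all genes) and fell below them for 1 gene (8.56%), and the groups of the other 5 overlapped. The median log2 fold change of the 10 was 1.14, beside -0.03 over all tested genes. The 7 further family members that were tested, described below, had a median of -0.18, with 2 positive and 5 negative values. The groups of all 7 overlapped, so the median of the 10 does not describe the whole family. Without KO replicate 1, edgeR still called 0 of the 10, while DESeq2 called *Mmp12* and *Mmp13* higher (2.66% of all genes with an adjusted p) and *Mmp19* lower (1.87%). Without KO replicate 2, edgeR called *Mmp12*, *Mmp13* and *Mmp14* higher (3.34% of all genes) and *Mmp17* lower (1.81%). DESeq2 without KO replicate 2 called 6 higher (9.32%) and 2 lower (7.67%), every gene but *Mmp19* and *Mmp2*. Of those 6, *Mmp9* was above WT in KO replicate 1 only (146 CPM), and KO replicate 3 was inside the WT range (7.08 CPM). Without KO replicate 3, DESeq2 called *Mmp12*, *Mmp13* and *Mmp14* higher (4.46%) and 0 lower (1.29%).

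**Figure D1:**
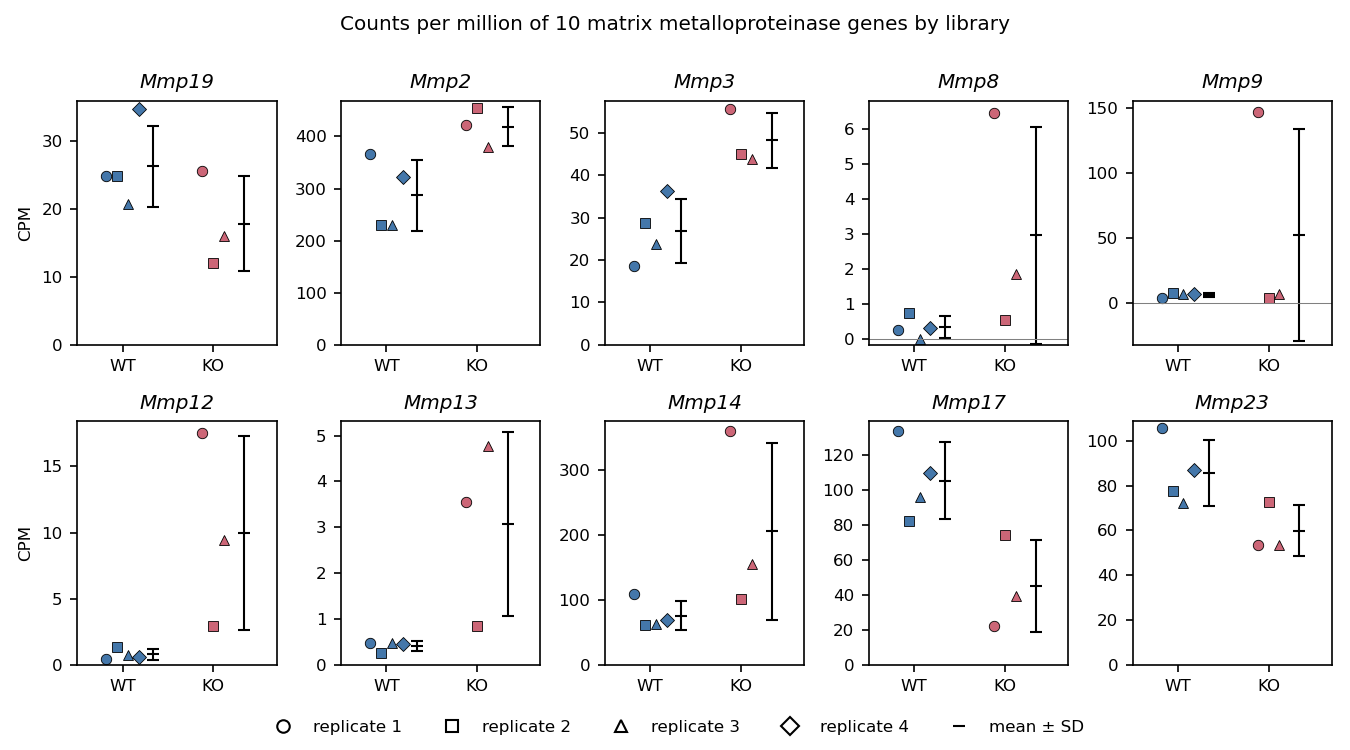
CPM (linear axes, 1 panel for each gene) in the 4 WT and 3 KO libraries, with 1 symbol for each replicate. The group mean ± SD stands beside the points. Axes start at 0, or below 0 for *Mmp8* and *Mmp9*, where the mean minus SD is negative in KO. *Mmp12* and *Mmp13* lie higher in all 3 KO libraries than in any WT library, *Mmp17* lies lower in all 3, and *Mmp9* stands at 146 CPM in KO replicate 1 alone.

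The targeted gene comes first. *Mmp19* (ENSMUSG00000025355, GRCm38 chr10:128790910-128800824, plus strand, 9 exon blocks) encodes a secreted protease without the gelatin-binding repeats of the gelatinases. It read 24.8, 24.8, 20.7 and 34.7 CPM in WT replicates 1 to 4 and 25.5, 12.0 and 15.9 CPM in KO replicates 1 to 3. KO replicates 2 and 3 were below the lowest WT library, at 45.6% and 60.7% of the WT mean, whereas KO replicate 1 was at 97.2% of it and inside the WT range. The mean was 26.2 ± 5.96 CPM in WT (SD, n = 4) and 17.8 ± 6.96 CPM in KO (SD, n = 3). Its log2 fold change was -0.56 (SE 0.29, 95% interval -1.23 to 0.11, edgeR adjusted p = 0.368). An exact 2-sided permutation of the library labels gave p = 0.2. With KO replicate 1 left out the log2 fold change was -0.92, and the call then depended on the tool, with an adjusted p of 0.294 by edgeR and 0.0118 by DESeq2. *Mmp19* transcript was thus counted in every library labelled knockout. The deposited values are sums over the whole gene, so reads from exons that a knockout allele keeps would be included in them.

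Reads of *Mmp19* and of overlapping genes on the other strand cannot be told apart, because the sources used here do not say whether counting used strand. In GENCODE M21, *Tmem198b* shares 789 exon bases with *Mmp19*, or 22.3% of the 3533 exon bases of *Mmp19*, and all of them lie after its last coding base. *Tmem198b* read 16.0 to 19.8 CPM in WT and 17.8 to 23.0 CPM in KO (log2 fold change 0.13, SE 0.15, edgeR adjusted p = 0.685). An antisense gene, *Gm47093*, shares 212 bases and had no row in the deposited table, so its level is not known. Of the 5 annotated genes on each side of *Mmp19*, 9 had a row, and edgeR called 0 of these. The neighbour that differed at an unadjusted p under 0.05 was *Ormdl2*, whose log2 fold change was 0.73 (SE 0.20; adjusted p = 0.181 by edgeR and 0.00657 by DESeq2). All its KO libraries were above all WT libraries. Of the neighbours, 8 of the 9 had positive log2 fold changes, beside 9006 of all 19188 tested genes. Apart from *Ormdl2*, none of the 9 differed from 0 at an unadjusted p under 0.05.

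**Figure D2:**
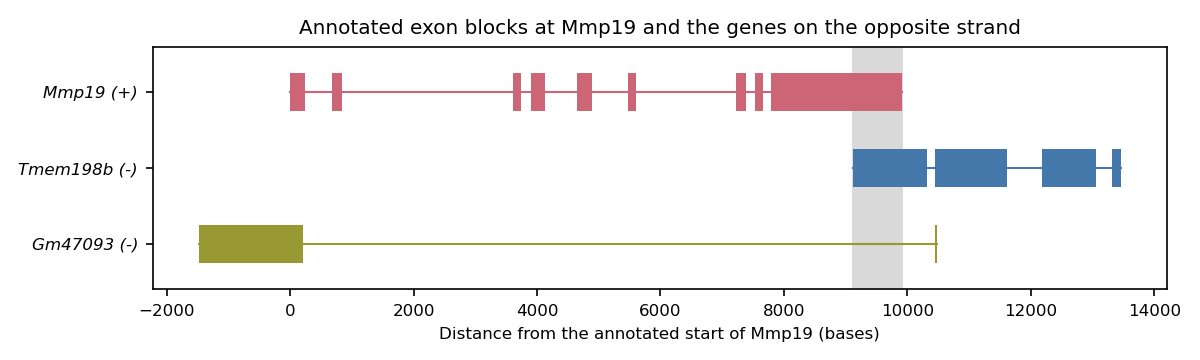
Exon blocks annotated at *Mmp19* (plus strand) and at the genes of the opposite strand, plotted by distance in bases from the start of *Mmp19*. The bases shared with *Tmem198b* are shaded. The last exon block of *Mmp19* overlaps *Tmem198b* and its first overlaps *Gm47093*.

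Among the gelatinases, which cleave denatured collagen, *Mmp2* was higher in each KO library and *Mmp9* was high in 1 library only. *Mmp2* (ENSMUSG00000031740, chr8:92827291-92853420), which is made by stromal and smooth muscle cells, read 367, 231, 231 and 322 CPM in WT and 423, 454 and 379 CPM in KO. The groups did not overlap, but the highest WT library and the lowest KO library lay close together. The fitted log2 fold change of *Mmp2* was 0.54 (SE 0.20, 95% interval 0.08 to 1.008), with an adjusted p of 0.235 by edgeR and 0.0824 by DESeq2, and the exact permutation p was 0.0571. *Mmp9* (ENSMUSG00000017737, chr2:164940780-164955850), which neutrophils and macrophages carry, read 4.42, 7.87, 7.03 and 6.83 CPM in WT. It read 146 CPM in KO replicate 1, and 4.13 and 7.08 CPM in KO replicates 2 and 3, which thus lie below the WT range and inside it. For *Mmp9* the log2 fold change was 3.01 (SE 1.12; adjusted p = 0.239 by edgeR), and it became -0.23 without KO replicate 1 (edgeR adjusted p = 0.842). DESeq2 gave *Mmp9* no adjusted p, and the exact permutation p was 0.457.

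KO replicate 1 also had the highest neutrophil signal. The summed CPM of 12 neutrophil markers were 5.05 to 21.6 in WT and 333, 14.5 and 59.2 in KO replicates 1 to 3. *S100a8*, a calcium-binding protein of neutrophils and monocytes, read 0.516 to 3.00 CPM in WT and 30.8, 1.699 and 5.37 CPM in KO. *Csf3r*, the receptor of granulocyte colony-stimulating factor, read 1.28 to 2.38 CPM in WT and 173, 3.87 and 23.8 CPM in KO. In KO replicate 1, 6 of the 12 markers (*S100a8*, *S100a9*, *Csf3r*, *Cxcr2*, *Retnlg* and *Cd177*) were above all WT libraries, with the chemokine receptor *Cxcr2* at 50.4 CPM and 0.338 CPM or less in WT. The other 6 (*Ly6g*, *Elane*, *Mpo*, *Camp*, *Ltf* and *Ngp*) were inside the WT range or below it, at 1.94 CPM or less. The part of these markers in the *Mmp9* value was not tested.

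A run of 10 *Mmp* genes lies on chromosome 9 between 7272514 and 7699585, a span of 427 kb. It holds 4 of the described genes: the collagenases *Mmp13* and *Mmp8*, the macrophage elastase *Mmp12* and the stromelysin *Mmp3*. Genes of this cluster are known for promoters with a site for the transcription factor AP-1 shortly before the start of transcription. RefSeq promoter windows on GRCm38.p6 (250 bases before to 50 after a start) were matched for 6 of the 10 genes, with 8 windows in all. They were searched for TGANTCA, which reads the same on both strands. The motif was found in windows of *Mmp3*, *Mmp13* and *Mmp12*, and in 7.81% of all 32851 windows. The 120 bases before these starts, all on the plus strand, are shown with the motif in capitals because these are the genes of the cluster with the clearest separation between groups. They lie at chr9:7445702-7445821 for *Mmp3*, chr9:7272394-7272513 for *Mmp13* and chr9:7347254-7347373 for the second annotated start of *Mmp12*.
Mmp3: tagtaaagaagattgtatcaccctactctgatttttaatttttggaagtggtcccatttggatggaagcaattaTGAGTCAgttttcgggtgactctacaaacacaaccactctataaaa
Mmp13: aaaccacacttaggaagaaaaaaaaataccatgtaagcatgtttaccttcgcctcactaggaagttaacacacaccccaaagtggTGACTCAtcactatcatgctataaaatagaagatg
Mmp12: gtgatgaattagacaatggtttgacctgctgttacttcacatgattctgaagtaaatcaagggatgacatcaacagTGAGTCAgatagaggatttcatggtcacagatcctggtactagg
The motif begins 46 bases before the start of *Mmp3*, 35 before that of *Mmp13* and 44 before the second start of *Mmp12*. The letters were not found in the window of the first *Mmp12* start, nor in those of *Mmp8*, *Mmp14* and *Mmp23*. A match describes the letters only and shows no binding. Windows of the cluster genes outside the 10 were not examined one by one. The motif can thus not be set against the fold changes across the cluster.

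*Mmp12* (ENSMUSG00000049723, chr9:7344381-7369499), the elastin-degrading protease of macrophages, separated the groups. Its WT libraries read 0.439, 1.38, 0.774 and 0.570 CPM and its KO libraries 17.6, 2.97 and 9.41 CPM. The lowest KO library was thus above the highest WT library. Its log2 fold change was 3.65 (SE 0.65, 95% interval 2.13 to 5.17), with an adjusted p of 0.165 by edgeR and 1.73e-06 by DESeq2. The exact permutation p was 0.0286, which is the smallest that 35 assignments of the labels allow. Without KO replicate 1 the log2 fold change of *Mmp12* was 2.96. The KO libraries had the same order for *Mmp12* as for the macrophage and the neutrophil markers, with replicate 1 highest and replicate 2 lowest. *Adgre1*, which encodes the macrophage surface protein F4/80, read 12.7 to 19.0 CPM in WT and 163, 30.4 and 52.1 CPM in KO. *Lyz2*, the lysozyme of myeloid cells, read 95.2 to 205 CPM in WT and 1879, 260 and 484 CPM in KO. *Mmp12* shares 157 exon bases with *Mmp1b* on the other strand, which had 0 counts in every library.

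*Mmp13* (ENSMUSG00000050578, chr9:7272514-7283331), a collagenase of cartilage, bone and inflamed stroma, was barely counted in WT, at 0.470, 0.253, 0.473 and 0.462 CPM. It read 3.56, 0.857 and 4.78 CPM in KO, so that the groups did not overlap and KO replicate 3, not replicate 1, was highest. *Mmp13* had a log2 fold change of 2.88 (SE 0.58, 95% interval 1.53 to 4.23), with an adjusted p of 0.165 by edgeR and 0.000213 by DESeq2. The exact permutation p of *Mmp13* was 0.0286. The sums of further marker lists were also higher in KO. Summed CPM of 12 cartilage and bone markers were 29.4 to 62.9 in WT and 295, 140 and 174 in KO replicates 1 to 3. *Acan* and *Col10a1* made up most of this sum in KO (132 and 114 CPM in KO replicate 1). Of the tested markers of this list, 8 had positive and 2 negative log2 fold changes. Summed CPM of 8 osteoclast markers were 122 to 158 in WT and 200, 174 and 209 in KO. *Ctsk* and *Acp5* made up most of that sum (80.8 and 93.0 CPM in KO replicate 3), and the tested markers had 6 positive and 1 negative log2 fold changes. The osteoclast sum and that of the skeletal muscle markers given below had the KO libraries in the same order as *Mmp13*. Single osteoclast markers differed in this. *Ctsk* read 65.3, 67.2 and 80.8 CPM in KO replicates 1 to 3, which is another order, and *Acp5* read 68.3, 67.7 and 93.0 CPM. *Nfatc1*, a further marker of the list, read 61.7, 37.8 and 33.5 CPM. No marker of these lists was at 0 in all libraries, and their part in the *Mmp13* value was not tested.

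*Mmp3* (ENSMUSG00000043613, chr9:7445822-7455975), a stromelysin that cleaves proteoglycans and can activate other proenzymes of the family, was the cluster gene with the highest counts. It read 18.5, 28.8, 23.8 and 36.3 CPM in WT and 55.7, 45.1 and 43.9 CPM in KO. All KO libraries exceeded all WT libraries, and the KO libraries were close to each other. *Mmp3* had a log2 fold change of 0.84 (SE 0.23, 95% interval 0.32 to 1.37), with an adjusted p of 0.181 by edgeR and 0.0170 by DESeq2, and the exact permutation p was 0.0571. Without KO replicate 1 the log2 fold change of *Mmp3* was 0.72 and DESeq2 no longer called it (adjusted p = 0.105). Summed CPM of 12 fibroblast markers, which overlapped between groups, were 15737 to 25617 in WT and 27819, 21382 and 18723 in KO. Of these markers, 6 had positive and 6 negative log2 fold changes. All KO libraries were above all WT libraries for *Lum*, a collagen-binding proteoglycan (139 to 225 CPM in WT and 447, 422 and 486 CPM in KO). They were below them for *Gsn* and *Clec3b*, and overlapped WT for the other 9. The part of these markers in the *Mmp3* value was not tested.

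*Mmp8* (ENSMUSG00000005800, chr9:7558456-7568485), the neutrophil collagenase, rested on few counts. The deposited counts were 16, 54, 0 and 24 in WT and 533, 39 and 144 in KO, or 0.251, 0.760, 0 and 0.326 CPM against 6.48, 0.557 and 1.86 CPM. The count of 0 in WT replicate 3 allows up to 0.0430 CPM (3 counts, counting error only, each count taken as 1 read). KO replicate 2 lay inside the WT range and the other KO libraries above it. Its log2 fold change was 3.14 (SE 1.24, 95% interval 0.26 to 6.03), with an adjusted p of 0.259 by edgeR and 0.0667 by DESeq2. Without KO replicate 1 the log2 fold change of *Mmp8* was 1.85, with an adjusted p of 0.650 by edgeR and 0.591 by DESeq2. The KO libraries had the same order for *Mmp8* as for the neutrophil and the macrophage markers. The part of these markers in this value was not tested.

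Most of the rest of the cluster was nearly silent, apart from *Mmp27*. *Mmp1a*, *Mmp1b*, *Mmp7* and *Mmp20* had 0 counts in all 7 libraries, and *Mmp10* had 1 count in KO replicate 2. If each count is 1 read, 0 counts allow up to 0.00591 CPM over the libraries together. The number of reads behind a count is unknown, so the true limit may be higher. *Mmp27*, which lies next to *Mmp8*, read 1.05 to 2.66 CPM in WT and 1.21 to 1.76 CPM in KO, its log2 fold change being -0.18 (SE 0.37; adjusted p = 0.835 by edgeR). The 4 described genes of the cluster had positive log2 fold changes, and *Mmp27*, the other tested gene of the run, a negative one.

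Among the membrane-anchored enzymes, *Mmp14* had a positive log2 fold change and *Mmp17* and *Mmp23* negative ones. *Mmp14* (ENSMUSG00000000957, chr14:54431612-54445364) encodes a transmembrane collagenase that activates the proenzyme of *Mmp2* at the cell surface. It read 109, 62.0, 62.5 and 69.1 CPM in WT and 360, 101 and 155 CPM in KO. KO replicates 1 and 3 lay above all WT libraries, whereas KO replicate 2 fell just under WT replicate 1, the highest of the WT group. *Mmp14* had a log2 fold change of 1.44 (SE 0.42, 95% interval 0.45 to 2.43), with an adjusted p of 0.188 by edgeR and 0.0177 by DESeq2, and the exact permutation p was 0.0857. Without KO replicate 1 the log2 fold change of *Mmp14* was 0.76, and neither tool called it. *Mmp14* lay 2.29, 0.47 and 1.08 above its WT mean on the log2 scale in KO replicates 1 to 3, where the median macrophage marker lay 3.02, 0.80 and 1.75 above its own.

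*Mmp17* (ENSMUSG00000029436, chr5:129584169-129611099) encodes a protease held in the membrane by a glycolipid anchor and is expressed by vascular smooth muscle. It read 134, 82.4, 95.8 and 110 CPM in WT and 22.1, 74.0 and 39.6 CPM in KO. Every KO library was below every WT library, and KO replicate 2 came nearest to WT. The log2 fold change was -1.22 (SE 0.39, 95% interval -2.13 to -0.31), with an adjusted p of 0.205 by edgeR and 0.0253 by DESeq2, and the exact permutation p was 0.0286. Without KO replicate 1 its log2 fold change was -0.90 and DESeq2 no longer called it (adjusted p = 0.0557). On the log2 scale *Mmp17* deviated from its WT mean by -2.23, -0.49 and -1.39 in KO replicates 1 to 3. The median smooth muscle marker deviated by -1.94, -0.37 and -1.18, the same order of libraries. All 10 smooth muscle markers had negative log2 fold changes, and 7 of them had groups that did not overlap. *Acta2*, smooth muscle actin, read 7989 to 9202 CPM in WT and 1674, 6165 and 3080 CPM in KO. *Myh11*, smooth muscle myosin, read 4433 to 5632 CPM in WT and 621, 3079 and 1694 CPM in KO. Their part in the *Mmp17* value was not tested.

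*Mmp23* (ENSMUSG00000029061, chr4:155650655-155653384, minus strand) encodes a protease that is anchored at its amino end and lacks the usual cysteine switch. It read 106, 77.4, 72.4 and 87.0 CPM in WT and 53.3, 72.8 and 53.5 CPM in KO. KO replicates 1 and 3 were below all WT libraries, and KO replicate 2 was just above WT replicate 3. *Mmp23* had a log2 fold change of -0.52 (SE 0.18, 95% interval -0.93 to -0.10), with an adjusted p of 0.222 by edgeR and 0.0858 by DESeq2, and the exact permutation p was 0.0857.

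**Figure D3:**
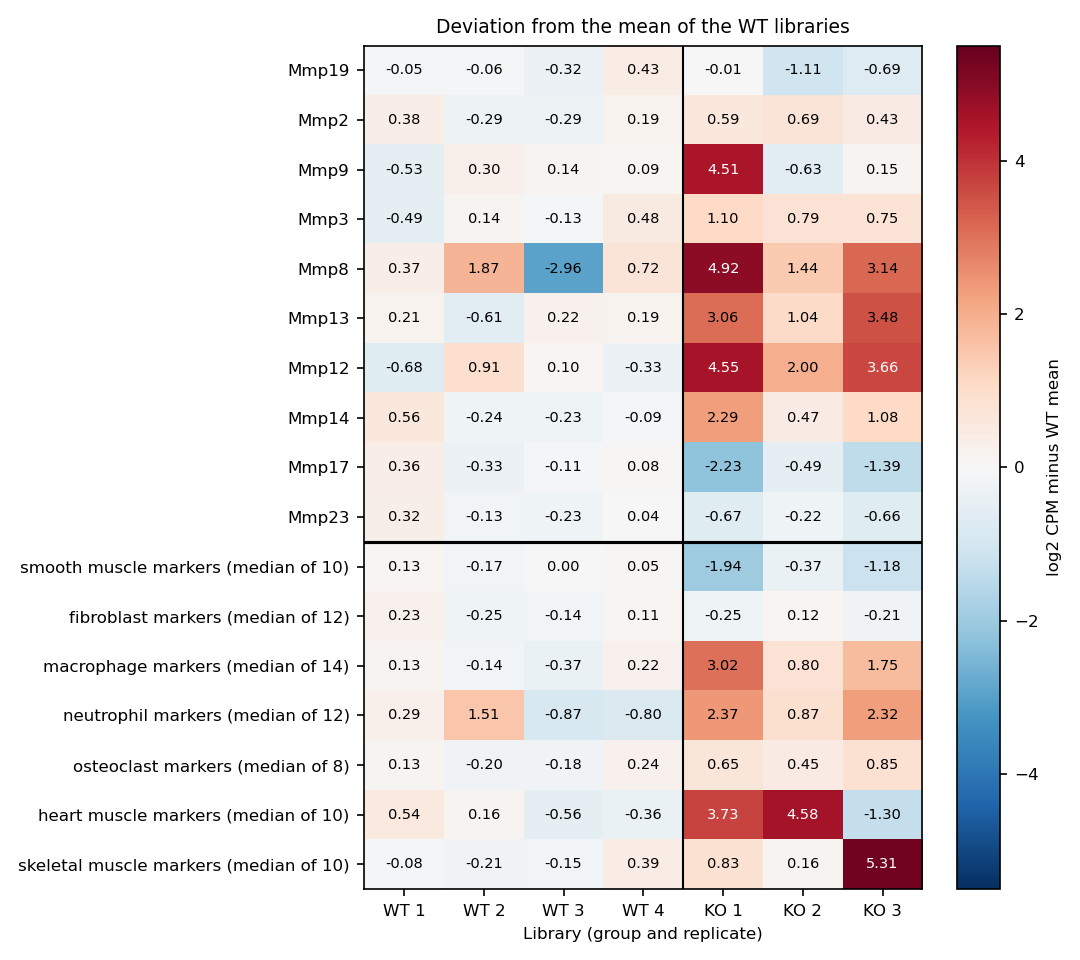
Log2 CPM minus the mean of the WT libraries (prior count 2) for each gene (rows) in each library (columns), with the value printed in each cell. KO replicate 1 holds the extreme values of *Mmp9* (4.51), *Mmp14* (2.29) and *Mmp17* (-2.23), while *Mmp2* and *Mmp3* are similar in all 3 KO libraries.

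Levels of different genes were compared as CPM per kilobase of exon. In WT, *Mmp2* was the most abundant of the 10 at 85.3 ± 20.2 CPM per kb (SD, n = 4), followed by *Mmp23* at 36.6, *Mmp17* at 15.9, *Mmp3* at 14.9 and *Mmp14* at 12.7. *Mmp19* was sixth at 7.42 ± 1.69 CPM per kb (SD, n = 4), *Mmp9* seventh at 1.85, and *Mmp13*, *Mmp8* and *Mmp12* stood at 0.155, 0.138 and 0.109. The WT ranges of *Mmp17* and *Mmp3*, of *Mmp3* and *Mmp14*, of *Mmp13* and *Mmp8*, and of *Mmp8* and *Mmp12* overlapped, so these neighbours did not differ beyond their spread. With the longest transcript as the length, *Mmp14* was the third in WT at 23.3 CPM per kb and *Mmp12* eighth at 0.177.

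In KO the order by mean level per length was *Mmp2* at 124, *Mmp14* at 34.5, *Mmp3* at 26.8, *Mmp23* at 25.6, *Mmp9* at 14.8, *Mmp17* at 6.83 and *Mmp19* at 5.04 CPM per kb. The KO ranges of *Mmp14*, *Mmp3*, *Mmp23*, *Mmp9* and *Mmp17* each overlapped that of the next gene, so this part of the order is not beyond the spread, and with the longest transcript *Mmp23* was the third. *Mmp9* took the fifth place through KO replicate 1, and it was seventh in the other KO libraries. *Mmp19* was sixth in each of the 7 libraries. Of the summed CPM per kb of the 10 genes, *Mmp19* made up 3.32% to 5.08% in WT and 2.42%, 1.51% and 2.23% in KO replicates 1 to 3. The groups did not overlap in this share, which also falls when the other genes rise. The level of *Mmp17* per level of *Mmp14* was 1.11 to 1.43 in WT and 0.0552, 0.657 and 0.230 in KO. The level of *Mmp14* per level of *Mmp2*, its substrate, was 0.121 to 0.167 in WT and 0.481, 0.126 and 0.231 in KO, with KO replicate 2 inside the range of WT.

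**Figure D4:**
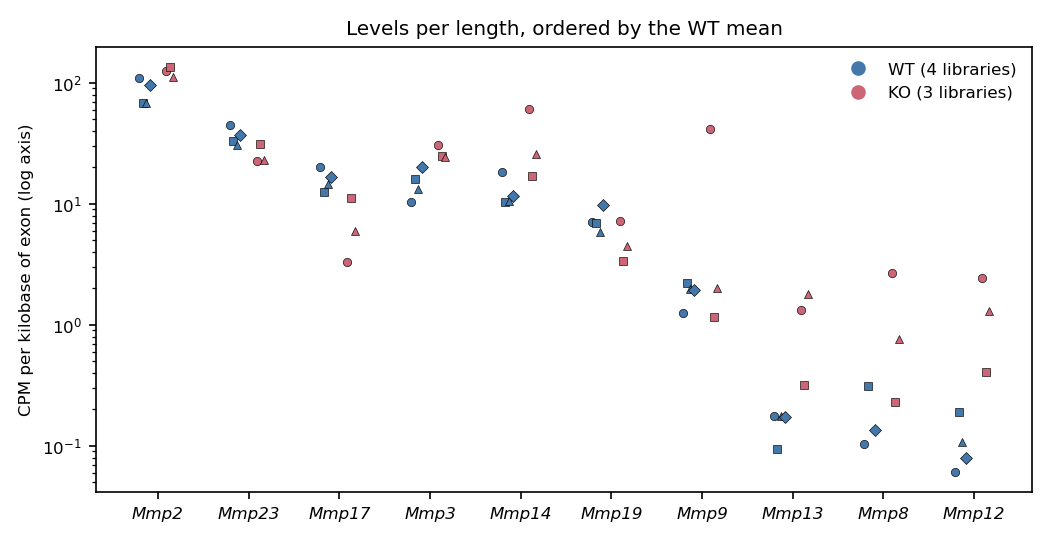
CPM per kilobase of exon (log axis) of each gene in the WT and KO libraries, 1 point for each library, ordered by the WT mean. The value of 0 of *Mmp8* in WT replicate 3 is not drawn. *Mmp2* is highest in both groups, and *Mmp13*, *Mmp8* and *Mmp12* lie lowest in WT and span a wide range in KO.

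The family holds 13 further genes with a row in the table, of which 7 were tested, and edgeR called 0 of them. *Mmp25*, a membrane-anchored protease of leukocytes, had the smallest p. It read 0.188 to 0.421 CPM in WT and 5.43, 0.2998 and 1.57 CPM in KO, and its groups overlapped. The log2 fold change of *Mmp25* was 3.07 (SE 0.86), with an adjusted p of 0.183 by edgeR and 0.00825 by DESeq2. The other tested genes had edgeR adjusted p-values of 0.452 or more. *Mmp11*, *Mmp15*, *Mmp16* and *Mmp28* averaged 9.32, 24.1, 9.01 and 24.0 CPM in WT and 11.4, 16.2, 8.83 and 20.3 CPM in KO. *Mmp24* was read mainly in WT replicate 3, at 6.65 CPM, and at 0.685 CPM or less in the other libraries.

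**Figure D5:**
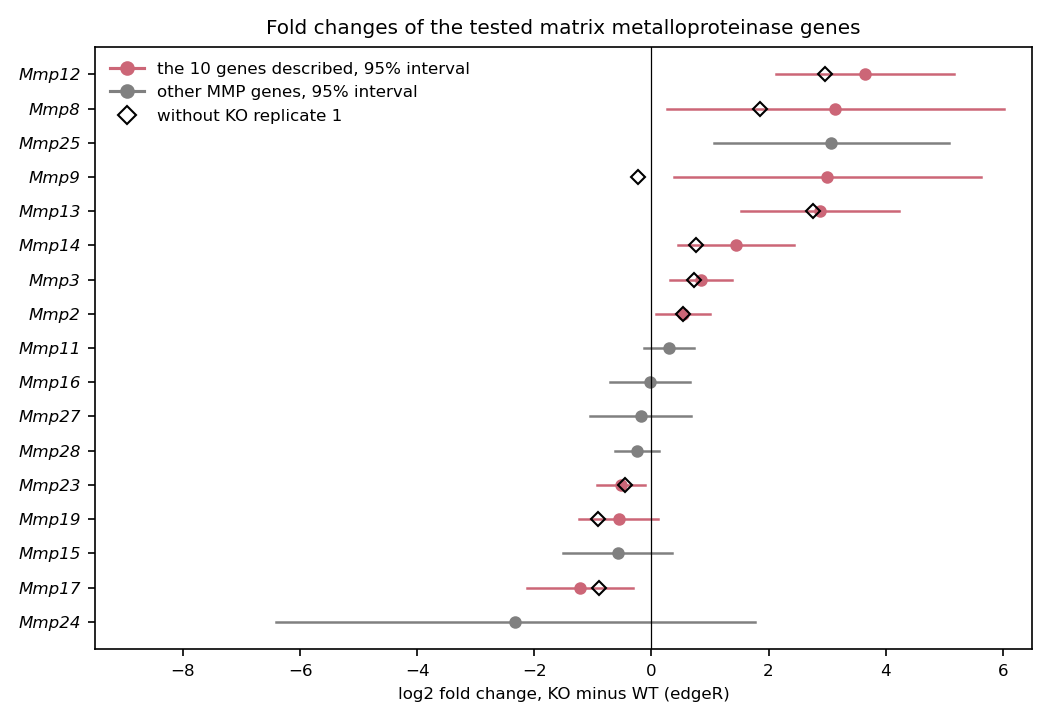
Log2 fold change (KO minus WT, edgeR) with its 95% interval for the 10 described genes and the 7 further tested family members, with open diamonds for the value without KO replicate 1. *Mmp9* moves from 3.01 to -0.23 when this library is left out, while *Mmp12* and *Mmp13* are then at 2.96 and 2.75.

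Of the inhibitors, *Timp1* stood apart. *Timp1*, a secreted inhibitor induced in injured tissue, read 11.1, 10.2, 9.996 and 14.9 CPM in WT and 217, 25.7 and 70.7 CPM in KO. No KO library was as low as any WT library, with a log2 fold change of 3.18 (SE 0.63) and an adjusted p of 0.165 by edgeR and 1.50e-05 by DESeq2. Of the 8 inhibitors tested, edgeR called 0 and DESeq2 called *Timp1* (6.15% of all genes with an adjusted p were called higher). The median log2 fold change of the 8 was -0.10. *Tfpi2*, an inhibitor of serine proteases that also acts on the family, differed by 1.31 on the log2 scale (SE 0.48; adjusted p = 0.235 by edgeR). *Reck*, a membrane-bound inhibitor, had one of -0.52 (SE 0.23, edgeR adjusted p = 0.303). *Timp2* and *Timp3*, the most abundant inhibitors, averaged 846 and 1077 CPM in WT and 711 and 832 CPM in KO, with overlapping groups.

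Proteases and receptors that activate or induce the family were tested for 15 of 18 listed genes. Of these, edgeR called 0 and DESeq2 called 3, all higher in KO (6.15% of all genes with an adjusted p). They were *Plau*, the urokinase that generates plasmin (log2 fold change 0.98, SE 0.23), its receptor *Plaur* (1.34, SE 0.37) and the collagen-degrading cathepsin *Ctsk* (0.62, SE 0.16). *Plau* read 9.47 to 14.7 CPM in WT and 31.9, 18.5 and 23.7 CPM in KO. The groups of these 3 genes did not overlap (8.17% of all genes had every KO library above every WT library). Of the same list, 2 genes had every KO library below every WT library (8.56% of all genes). *Pcsk6* read 73.8 to 109 CPM in WT and 29.2, 70.4 and 70.9 CPM in KO. *Bsg* read 304 to 330 CPM in WT and 258, 301 and 302 CPM in KO. *Plg*, the plasminogen gene, had 0 counts in every library. *Furin*, the protease that cleaves the membrane-type proenzymes inside the cell, averaged 122 ± 13.5 CPM in WT (SD, n = 4) and 158 ± 52.1 CPM in KO (SD, n = 3), with overlapping groups.

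Of 20 transcription factors known to act on *Mmp* promoters, all were tested and edgeR called 0, while DESeq2 called 4 higher (6.15% of all genes with an adjusted p) and 1 lower (3.53%). *Runx2*, the factor of bone and hypertrophic cartilage that acts on the *Mmp13* promoter, read 1.43 to 2.05 CPM in WT and 18.3, 4.75 and 6.85 CPM in KO (log2 fold change 2.52, SE 0.47, DESeq2 adjusted p = 2.98e-05). *Runx1*, its relative in blood and mesenchymal cells, read 3.30 to 6.63 CPM in WT and 82.5, 15.6 and 26.5 CPM in KO (log2 fold change 3.00, SE 0.57, DESeq2 adjusted p = 1.05e-05). *Jund*, a subunit of AP-1, was the gene called lower, at 216 to 309 CPM in WT and 130, 146 and 143 CPM in KO (log2 fold change -0.82, SE 0.15, DESeq2 adjusted p = 0.000123). The other AP-1 subunits on the list, *Fos*, *Fosb*, *Fosl1*, *Fosl2*, *Jun* and *Junb*, had overlapping groups. *Fos*, an immediate early gene, read 6.79 CPM in WT replicate 2 and 100 to 118 CPM in the other WT libraries.

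Proteins reported as substrates of the protease that *Mmp19* encodes were represented by 12 genes, all tested. Here too edgeR called 0, and DESeq2 called 2 higher (6.15% of all genes with an adjusted p). *Acan*, the proteoglycan aggrecan, read 49.5, 22.2, 29.2 and 35.2 CPM in WT and 132, 88.9 and 76.4 CPM in KO, with a log2 fold change of 1.54 (SE 0.30, DESeq2 adjusted p = 0.000233). *Igfbp3*, a binding protein of insulin-like growth factors, had a log2 fold change of 0.92 (SE 0.22, DESeq2 adjusted p = 0.00825). *Comp*, a cartilage matrix protein, had one of 1.28 (SE 0.47, DESeq2 adjusted p = 0.0624). The median over the 12 genes was 0.48, 5 genes had all KO libraries above all WT libraries (8.17% of all genes) and 1 had them below (8.56%). These values are transcript levels and give no measure of cleavage.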

How the data were processed

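Aorta RNA of 4 WT and 3 KO libraries was made into libraries from 2 µg of total RNA each with a SMARTER mRNA kit, per the labels' protocols. The deposited table holds estimated counts for each gene as whole numbers, unscaled between libraries. The submitters' processing notes name the builds GRCm38 and mm10. The aligner, counting tool and strandedness were not given in the sources used here. Values between 8 and 40 that are multiples of 4 occurred 1.25 to 1.38 times as often as the values beside them, so the number of reads behind a count is unknown. Of 47729 identifiers, 47310 matched a symbol in GENCODE M21, whose GRCm38 coordinates are given 1-based. All 7 value columns were used.

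Counts were tested with edgeR 4.0.16 in R 4.3.3 (filterByExpr, TMM, glmQLFit, glmQLFTest, no covariates), with Benjamini-Hochberg adjustment over 19188 genes and a threshold of 0.05. Standard errors match the quasi-likelihood F statistic. CPM use the TMM factors. An exact 2-sided permutation test over the labels was run for each of the 10 genes. Alternatives were DESeq2 1.42.0, limma-voom (limma 3.58.1) with sample quality weights, 2 other scalings, 2 other filters, counts divided by 4, a replicate block and each library left out. DESeq2 without each KO library was chosen after seeing the data. The edgeR fit was checked on simulated counts, with the estimated spread between libraries (dispersion) divided by 4. That check does not show what the test can find at the spread of these libraries.

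The 10 genes, 5 lists of related genes and 11 marker lists were chosen with earlier results of these data known. From each list of related genes the 3 with the smallest p were named, all tested *Mmp* genes, and the 3 genes most and least correlated with *Mmp19* among those with a mean of 2 CPM or more. *Timp2*, *Timp3*, *Furin*, *Pcsk6*, *Bsg*, *Plg*, *Fos*, *Cxcr2*, *Lum*, *Col10a1*, *Acp5*, *Nfatc1*, *Ormdl2* and *Tmem198b* were named outside this rule, after their values were seen. Promoter sequences are from RefSeq (GRCm38.p6). The number of libraries limits the precision.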

Additional observations from a re-analysis of the deposited data

Results flagged for a closer look

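In 38 sets of 4 WT values, the gap of the highest or lowest library to its nearest neighbour was compared with the range of the set (Dixon's test at 95%), and 4 stood out. Chance alone gives about 1 in 20. *Mmp13* in WT replicate 2 read 0.253 CPM, below 0.462 to 0.473 CPM in the other WT libraries. *Mmp14* in WT replicate 1 read 109 CPM, above 62.0 to 69.1 CPM, and it is this library that overlaps KO replicate 2. *Mmp15*, a membrane-type family member, read 46.1 CPM in WT replicate 3 and 14.8 to 18.7 CPM in the other WT libraries. *Mmp24*, another membrane-type member, read 6.65 CPM in WT replicate 3 and 0 to 0.394 CPM in the others. The groups of *Mmp15* and *Mmp24* overlapped.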

How the results depend on the processing

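The count of 0 called genes among the 10 was the same in edgeR under both other scalings, both other filters and division of the counts by 4, and in limma-voom. DESeq2 called 5. Leaving out single libraries in edgeR gave 0 to 4, the 4 being without KO replicate 2, when 1029 genes were called in all, against 3 with every library. DESeq2 without KO replicate 1, 2 and 3 called 3, 8 and 3 of the 10, and 774, 3183 and 1004 genes in all, against 1606 with every library. The log2 fold change of *Mmp19* was -0.92 to -0.28 with single libraries left out in edgeR, and -0.92 in DESeq2 without KO replicate 1 (adjusted p = 0.0118). *Mmp9* reversed without KO replicate 1, to -0.23 in edgeR and -0.23 in DESeq2, ranged from -0.23 to 3.62 with single libraries left out in edgeR, and was 0.33 in limma-voom. With the replicate block, 0 of the 10 were called and *Mmp19* had a log2 fold change of -0.46 (edgeR adjusted p = 0.573). Deviations of WT and KO libraries with the same number correlated at 0.0545, 0.0691 and 0.34. Of the KO libraries only replicate 3 correlated best with its own number, and that pair was the highest of all pairs. Correlations of so few pairs cannot show whether libraries of the same number were paired, which the labels do not say. Over all genes, edgeR called 0 without a filter and 7 with at least 50 counts in 3 libraries or with counts divided by 4, and limma-voom called 7. Apart from *Mmp9*, no described gene changed direction under the 15 other settings. The causes of these differences were not tested.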

Other observations

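The genes whose log2 CPM followed *Mmp19* most closely over the 7 libraries, among 13513 genes, were *Vps37b* (Pearson r = 0.96), *Rpusd2* (0.96) and *Ddx19b* (0.96). Those that ran most against it were *Adm* (-0.98), *Zfp418* (-0.96) and *Rarres1* (-0.95). These values describe 7 libraries that share their preparation, and the genes were picked as the extremes of many. *Adm*, which encodes the vasodilator peptide adrenomedullin, read 8.46 to 11.2 CPM in WT and 10.4, 16.6 and 14.3 CPM in KO, and KO replicate 1 was again within the WT range. *Rarres1* read 3.15 to 4.12 CPM in WT and 4.23, 7.08 and 6.07 CPM in KO, with all KO libraries above all WT libraries. The other 9 described *Mmp* genes correlated with *Mmp19* between -0.38 and 0.36.

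Markers of heart and skeletal muscle were counted unevenly in the libraries. Summed CPM of 10 heart muscle markers were 90.1 to 160 in WT and 805, 1354 and 40.01 in KO replicates 1 to 3. Those of 10 skeletal muscle markers were 7.39 to 12.1 in WT and 28.7, 22.3 and 224 in KO. Of the 10 described genes, *Mmp2* had its KO libraries in the order of the heart muscle list (454, 423 and 379 CPM in KO replicates 2, 1 and 3). *Mmp13* had them in the order of the skeletal muscle list (4.78, 3.56 and 0.857 CPM in KO replicates 3, 1 and 2). In KO replicate 3 the heart muscle sum was below all WT libraries, whereas *Mmp2* was above them. Few orders of the KO libraries are possible and 11 marker lists were at hand, so a shared order alone cannot show a link. The part of these lists in the 2 values was not tested.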
